A study of Homo sapiens with 6 samples.

Results

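The mitochondrially encoded transcripts of H295R cells were taken as every row of the count table whose gene name starts with MT-, which gave 37 of its 57341 named genes. They comprised 13 mRNAs, 2 rRNAs and 22 tRNAs. H295R is a steroid-secreting cell line derived from a human adrenocortical carcinoma. Sequenced RNA came from the parental line, in 3 replicates, and in 3 further replicates from H295R-PM-Ptc+, a subpopulation of the same line that was sorted for the Hedgehog receptor Ptch1 at the cell surface and then amplified. Neither group was treated, both were grown in the same medium, and no genetic change separates them by design. H295R-PM-Ptc+ is a sorted and expanded population of 1 line, and nothing states that its replicates, or those of the parental line, came from separate cultures, so that p-values measure the spread between these samples, which may be technical.

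The names of the 2 groups need care. The 6 columns of normalized values supplied with the study each match the deposited column that carries the other group name and the same code, and PTCH1, the gene by whose product the cells were sorted, had counts of 441, 559 and 579 in the H295R-labelled libraries and of 248, 326 and 319 in the H295R-PM-Ptc+-labelled ones (log2 fold change -0.81, SE 0.15, adjusted p = 0.0207, edgeR's quasi-likelihood F-test). The libraries are therefore called by their labels throughout, and every direction given here compares the H295R-PM-Ptc+-labelled libraries with the H295R-labelled libraries and turns if the labels are exchanged. Fragments counted on genes numbered 23264403 to 25813247 in a library, and 16710 genes passed the filter on low counts and were tested. All 8 adrenocortical markers on the list were among them, with a summed level of 880 to 1216 CPM (counts scaled to a common library size by TMM factors), while the summed leukocyte, endothelial and fibroblast markers stayed at or below 0.24 CPM in every library and those of the adrenal medulla at or below 1.53 CPM. Of the 8 adrenocortical markers 3 had a log2 fold change above 0 and 5 below (median -0.07). Of these markers edgeR called 1, beside 3.73% of all tested genes. With the replicate number as a block 2 passed as higher and 1 as lower, beside 12.1% and 10.4% of all tested genes. CYP21A2, the steroid 21-hydroxylase, had 12.8 ± 2.19 CPM in the H295R-labelled libraries and 23.5 ± 1.43 CPM in the H295R-PM-Ptc+-labelled ones (SD, n = 3, adjusted p = 0.00670 in edgeR), and STAR, which brings cholesterol into mitochondria, had 298 ± 71.1 and 397 ± 103 CPM (adjusted p = 0.346, or 3.91e-06 with the block). CYP11A1, the enzyme that converts cholesterol to pregnenolone in mitochondria, had 164 ± 28.3 and 138 ± 16.7 CPM (adjusted p = 0.391, or 0.001004 with the block).

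The human mitochondrial genome is a small circle that is transcribed from both strands into long precursors, from which the rRNAs and mRNAs are released mainly by cutting out the tRNAs that lie between them. Its mRNAs encode core subunits of the respiratory chain (complexes I, III and IV) and of ATP synthase (complex V), all other subunits being made from nuclear genes. The mRNAs carry short poly(A) tails except that of MT-ND6, which largely lacks one, and mature tRNAs are short and folded. In adrenocortical cells the mitochondrion is also where steroid synthesis begins, since cholesterol is converted to pregnenolone there.

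As deposited, 28 of the 37 genes lie on the plus strand of chrM in hg38, including both rRNA genes, 12 mRNA genes and 14 tRNA genes, while MT-ND6 and 8 tRNA genes lie on the minus strand. All 37 positions equal those of a current annotation of hg38 (GENCODE v44). Mitochondrial genes are packed so closely that some share bases, which bears on how fragments can be assigned. MT-ATP8 (chrM:8366-8572) and MT-ATP6 (chrM:8527-9207), the 2 ATP synthase subunits, share 46 bases, and MT-ND4L (chrM:10470-10766) and MT-ND4 (chrM:10760-12137), 2 subunits of complex I, share 7. The 2 stretches are shown on the plus strand, in exons of both protein-coding genes, with the shared bases in capitals, at chrM:8512-8587 and chrM:10745-10781.
MT-ATP8/MT-ATP6 overlap: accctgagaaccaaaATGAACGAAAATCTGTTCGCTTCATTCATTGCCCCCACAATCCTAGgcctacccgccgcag
MT-ND4L/MT-ND4 overlap: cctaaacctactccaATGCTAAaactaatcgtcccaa
A fragment that lies across such a stretch cannot be assigned to 1 gene, so the counts of these 4 genes are less certain. MT-ATP6 and MT-CO3 also meet in 1 shared base at position 9207, as do the tRNA genes MT-TC and MT-TY at position 5826, and MT-TI and MT-TQ, which lie on opposite strands, share positions 4329 to 4331.

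The 37 genes together held 2.68%, 2.73% and 2.09% of all counts in replicates 1, 2 and 3 labelled H295R, and 1.94%, 2.85% and 1.49% in the H295R-PM-Ptc+-labelled ones. Both the highest and the lowest share of the 6 libraries were thus found under the label H295R-PM-Ptc+, and the groups overlapped. The means were 2.50% ± 0.36 and 2.10% ± 0.69 (SD, n = 3), a log2 ratio of -0.25. Taken by replicate number, the log2 ratio of the shares was -0.47 in pair 1, 0.06 in pair 2 and -0.48 in pair 3. Without replicate 2 labelled H295R-PM-Ptc+ the ratio of the group means was -0.54, and without replicate 3 of that label it was -0.06, so that its size rested on these libraries. In bulk RNA, fewer cells with a transcript and less of the transcript per cell cannot be told apart.

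**Figure D1:**
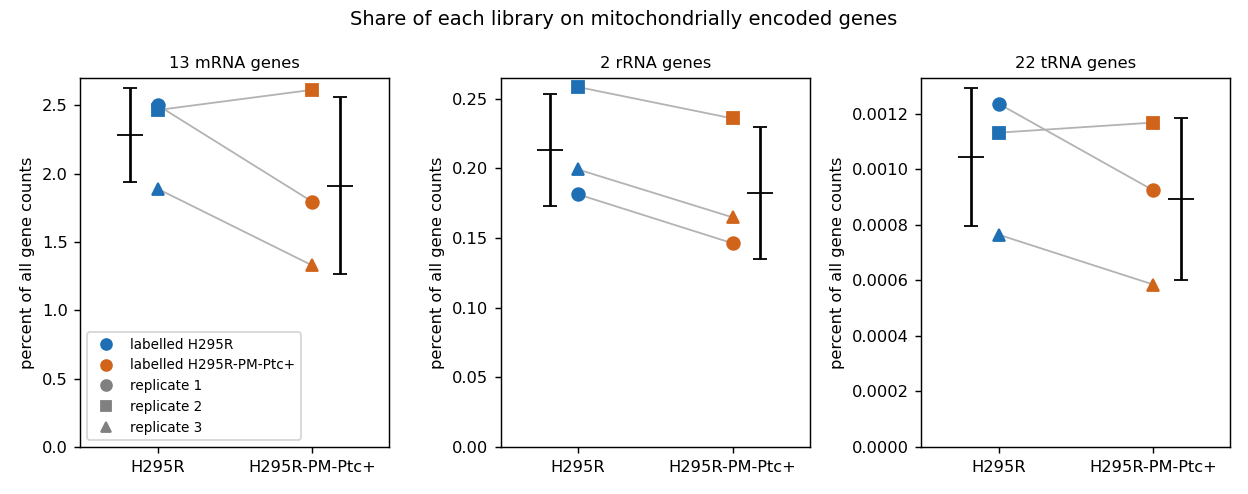
Share of all counts, in percent, held by the 13 mRNAs, 2 rRNAs and 22 tRNAs in each library, with 1 point per library, the shape giving the replicate number, lines joining same-numbered replicates and black bars the mean ± SD of a group. The mRNA share runs from 1.33% to 2.61%, both in H295R-PM-Ptc+-labelled libraries, and is lower under that label in pairs 1 and 3 but not in pair 2.

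Nearly all of these counts came from the mRNAs, which held 2.29% ± 0.34 and 1.91% ± 0.65 of all counts in the H295R-labelled and the H295R-PM-Ptc+-labelled libraries. Within the mitochondrial counts the 2 rRNAs accounted for 6.76%, 9.48% and 9.53% in the H295R-labelled libraries and for 7.53%, 8.27% and 11.0% in the H295R-PM-Ptc+-labelled ones, with overlapping groups. The 22 tRNAs together held 291, 292 and 192 counts against 230, 293 and 136. By complex, the 3 mRNAs of complex IV were the most abundant, with a summed level of 11212 ± 1477 CPM in the H295R-labelled libraries and 9085 ± 3120 CPM in the H295R-PM-Ptc+-labelled ones (SD, n = 3). The 7 mRNAs of complex I summed to 7579 ± 1133 and 6612 ± 2240 CPM, and the 2 of complex V to 2242 ± 347 and 1754 ± 718 CPM. All of these sums overlapped between the groups.

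Per kilobase of gene length, MT-CO2, a core subunit of complex IV, had the highest level of the mRNAs and rRNAs, at 5653 ± 927 CPM per kb in the H295R-labelled libraries and 4381 ± 1609 in the H295R-PM-Ptc+-labelled ones (SD, n = 3). MT-CO3, another subunit of complex IV, followed at 4502 ± 680 and 3403 ± 1111 CPM per kb. MT-ATP6, MT-CO1, MT-ND4, MT-ATP8 and MT-ND4L came next, between 2628 and 2175 CPM per kb in the H295R-labelled libraries, and neighbours in this order differed by less than their SDs of 316 to 452 CPM per kb. The order went on over MT-CYB (1702), MT-ND2 (1321), MT-RNR2 (1129), MT-ND3 (1088) and MT-ND1 (1006) to MT-ND5 (488) and MT-RNR1 (404). MT-ND6, the mRNA of the minus strand, stood far below at 39.3 ± 10.6 CPM per kb in the H295R-labelled libraries and 41.7 ± 18.9 in the H295R-PM-Ptc+-labelled ones. That level was close to those of the most abundant tRNA rows per kilobase, MT-TL1 (44.8 ± 13.5) and MT-TT (41.2 ± 3.23). The 2 rRNA levels were below those of most mRNAs here. The sources name both an mRNA kit and a total RNA kit for these libraries and give polyA RNA as the molecule, so that levels of different classes of RNA are not measured alike. In the same libraries 6 listed nuclear RNAs without poly(A) tails summed to 32.7, 28.1 and 27.8 CPM under the label H295R and to 14.01, 21.2 and 26.2 CPM under H295R-PM-Ptc+, 3 of them at 0 counts throughout. These sums did not overlap, and were therefore lower under the label H295R-PM-Ptc+ in every pair. Nearly all of them was 1 gene, RN7SL2, an RNA of the signal recognition particle. It had 28.1 ± 2.83 and 18.6 ± 5.68 CPM (SD, n = 3), a log2 difference of -0.60 (edgeR adjusted p = 0.146), which passed with the replicate number as a block (adjusted p = 0.00392). The only other tested gene of the 6, RN7SK, was at 0.36 (adjusted p = 0.5996). The part of this in the mitochondrial values was not tested.

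**Figure D2:**
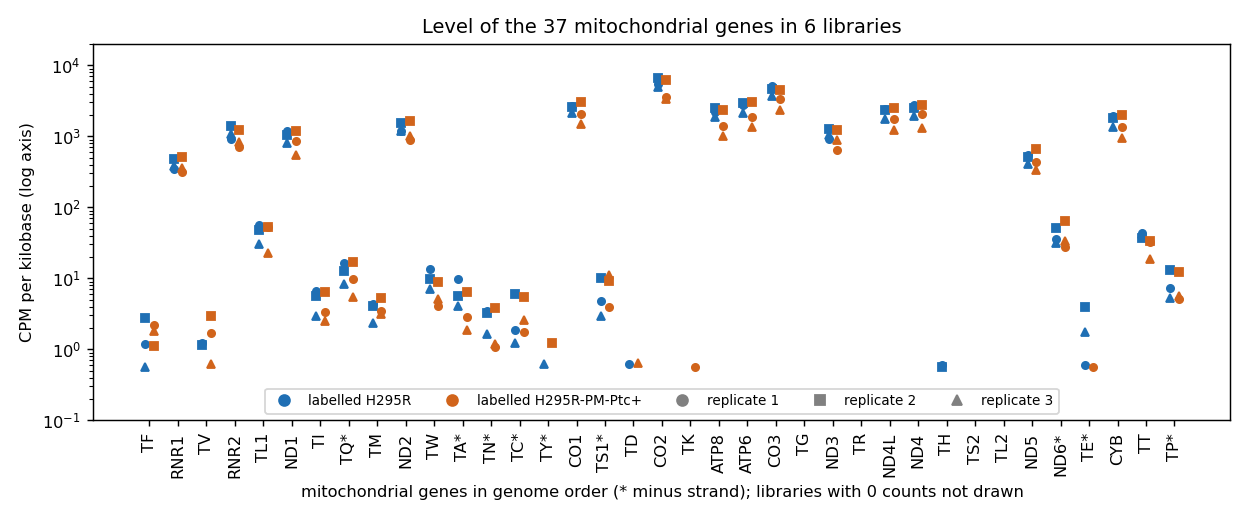
Level of the mitochondrial genes in genome order, in CPM per kb of gene length on a log axis, with 1 point per library, colours giving the label and libraries with 0 counts not drawn. The points span from single tRNA counts to MT-CO2, with group means of 5653 and 4381 CPM per kb, MT-ND6 lies at the level of the 2 most abundant tRNAs, and the libraries of both labels overlap in all 13 mRNAs and both rRNAs.

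Of the 37 genes, 21 passed the filter on low counts and were tested, namely all 13 mRNAs, both rRNAs and 6 tRNAs. None of the 21 had an adjusted p under 0.05 in edgeR, against 3.73% of all 16710 tested genes (1.32% lower and 2.42% higher), and the smallest adjusted p was 0.281, that of MT-TT. At an unadjusted p under 0.05 edgeR counted 1 of them, against 17.3% of all tested genes. DESeq2 tested 24 and called 0 (4.74% of all genes), with 1 at an unadjusted p under 0.05, and limma-voom called 0 of 21 (3.64% of all genes), also with 1. The log2 fold change was below 0 for 19 of the 21 and above 0 for MT-TS1 and MT-ND6, with a median of -0.24 where that of all tested genes was 0.00. The SEs of the mRNAs and rRNAs lay between 0.18 and 0.29, so that differences of the size of the median could not be told from the spread between replicates in this fit. The median was -0.54 without replicate 2 labelled H295R-PM-Ptc+ and -0.05 without replicate 3 of that label, and single fold changes also shifted when a library was left out (ranges are given with the processing alternatives).

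Same-numbered replicates of the 2 groups carry the same code in their sample descriptions, whose meaning is not stated. The direction differed between these pairs. In pair 1 each of the 15 mRNAs and rRNAs lay below 0 in the H295R-PM-Ptc+-labelled library, with log2 ratios of -0.65 to -0.13 and a median of -0.45. In pair 2 only 5 were lower and 10 higher, with a median of 0.09 and a range of -0.20 to 0.34. In pair 3, 14 were lower and MT-ND6 higher, with a median of -0.50. When the replicate number was entered as a block, SEs of these 15 genes fell to between 0.047 and 0.096 and 10 of the 21 tested genes passed an adjusted p of 0.05, all lower, against 22.5% of all tested genes and 10.4% that passed as lower. The 10 were MT-RNR2, MT-ND1, MT-CO2, MT-ATP8, MT-ATP6, MT-CO3, MT-ND3, MT-ND4L, MT-ND4 and MT-CYB. Of the 10, MT-RNR2, MT-CO2, MT-ATP8, MT-CO3 and MT-ND3 were lower in all 3 pairs, while the other 5 were higher in pair 2. With MT-TW and MT-TT, 7 of the 21 tested mitochondrial genes were lower in all 3 pairs, as were 25.7% of all tested genes. The count also depended on the pairs used. It was 7 of 21 tested without pair 1, where MT-ND6 passed as higher and 25.01% of all tested genes passed in either direction. It was 14 of 19 without pair 2 (16.8% of all tested genes in either direction) and 6 of 23 without pair 3 (12.7% in either direction). MT-RNR2, MT-CO2, MT-ATP8, MT-ATP6, MT-CO3 and MT-ND3 passed as lower in each of these fits.

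**Figure D3:**
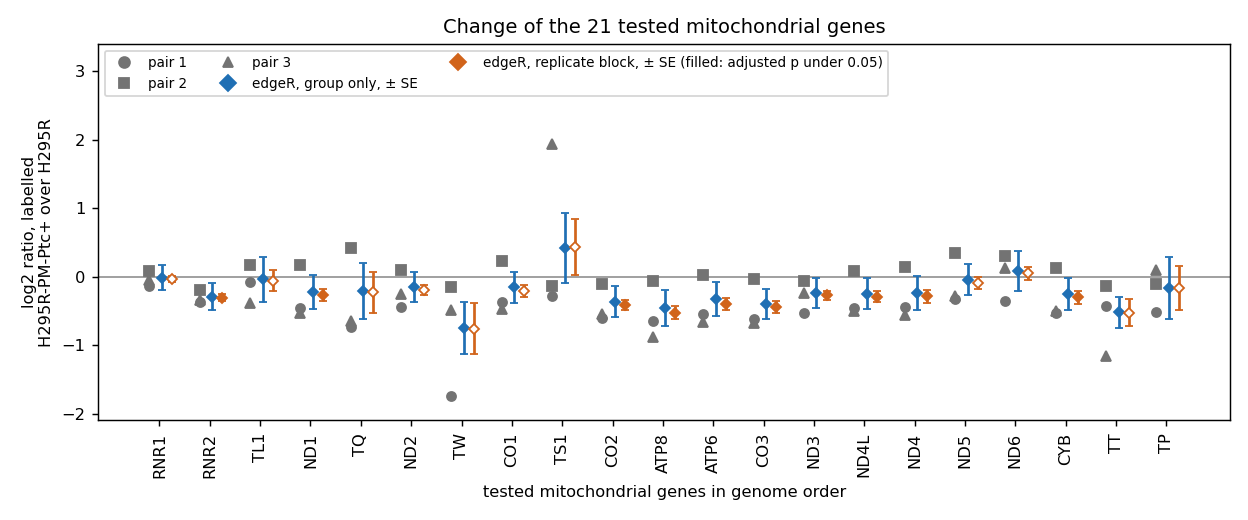
Log2 ratio of H295R-PM-Ptc+-labelled libraries over H295R-labelled ones for the 21 tested mitochondrial genes in genome order. Grey symbols are the 3 same-numbered pairs, blue the edgeR fit on group only and orange the fit with the replicate block, both with their SE as bars, and filled orange symbols have an adjusted p under 0.05. Pair 2 lies near or above 0 where pairs 1 and 3 lie below, and the 10 filled symbols are all below 0.

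The most negative fold changes among the 15 mRNAs and rRNAs were those of 4 genes that follow one another on the plus strand and encode complex IV and V subunits, MT-CO2 (chrM:7586-8269), MT-ATP8, MT-ATP6 and MT-CO3 (chrM:9207-9990). MT-CO2 had counts of 87883, 116171 and 82789 in replicates 1 to 3 labelled H295R and of 62107, 106036 and 53118 in the H295R-PM-Ptc+-labelled ones. The 2 lowest libraries carried the label H295R-PM-Ptc+, but its replicate 2 was above 2 of the H295R-labelled libraries. Its log2 fold change was -0.37 (SE 0.23, adjusted p = 0.469) in edgeR and -0.41 (SE 0.07, adjusted p = 5.65e-04) with the replicate block. MT-ATP8, a small membrane subunit of ATP synthase, had counts of 11041, 13006 and 9451 against 7507, 12138 and 4807. Its groups overlapped only through replicate 2 labelled H295R-PM-Ptc+. The log2 fold change was -0.45 (adjusted p = 0.434), and -0.53 with the block (adjusted p = 8.88e-04).

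MT-CO3 had levels of 3977, 3673 and 2939 CPM in the H295R-labelled libraries and of 2593, 3574 and 1837 CPM in the H295R-PM-Ptc+-labelled ones. It was lower in every pair, by as little as 0.04 on the log2 scale in pair 2, and its log2 fold change was -0.40 (adjusted p = 0.396), or -0.45 with the block (adjusted p = 0.00128). MT-ATP6, which forms part of the proton channel of ATP synthase, had 1872, 2021 and 1475 CPM against 1287, 2054 and 931 CPM. Its pair 2 did not share the direction of the others (log2 ratio 0.02), and its change was -0.33 (adjusted p = 0.569), or -0.39 with the block (adjusted p = 0.00392). MT-CO1, the catalytic core subunit of complex IV, lies upstream of these 4 genes (chrM:5904-7445) and had 4180, 4028 and 3236 CPM against 3231, 4697 and 2333 CPM. The highest of its 6 libraries was replicate 2 labelled H295R-PM-Ptc+, and it passed in neither fit (log2 fold change -0.16, adjusted p = 0.794, and -0.21, adjusted p = 0.110, with the block).

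Among the complex I subunits, MT-ND3 had 320, 445 and 364 CPM in the H295R-labelled libraries and 222, 427 and 308 CPM in the H295R-PM-Ptc+-labelled ones. It was lower in every pair, and its fold change was -0.24 (adjusted p = 0.648), or -0.27 with the block (adjusted p = 0.00555). MT-ND1, MT-ND4L and MT-ND4 had log2 fold changes between -0.25 and -0.22 without the block and between -0.29 and -0.27 with it, where their adjusted p was 0.0427, 0.0134 and 0.0283, and all 3 were higher in pair 2. MT-ND4 had 3841, 3474 and 2626 CPM against 2821, 3825 and 1782 CPM, MT-ND1 between 524 and 1136 CPM and MT-ND4L between 370 and 738 CPM over the 6 libraries. MT-ND2 had 1258, 1617 and 1253 CPM against 926, 1728 and 1056 CPM, its highest libraries being the replicates numbered 2. MT-ND2 (-0.20, adjusted p = 0.0551) and MT-ND5 (-0.09, adjusted p = 0.516) did not pass with the block. MT-ND5, the longest mitochondrial mRNA gene, had 986, 936 and 732 CPM against 787, 1186 and 601 CPM. MT-CYB, the cytochrome b of complex III and the only mitochondrial gene of that complex, had 2213, 2058 and 1554 CPM against 1531, 2247 and 1093 CPM. Its highest and its lowest library carried the same label, H295R-PM-Ptc+, and its log2 fold change was -0.26 (adjusted p = 0.654), or -0.30 with the block (adjusted p = 0.0211).

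MT-ND6 (chrM:14149-14673, minus strand), a further complex I subunit, did not follow the direction of most mRNAs. It had counts of 444, 683 and 405 in the H295R-labelled libraries and of 373, 825 and 413 in the H295R-PM-Ptc+-labelled ones. The 2 replicates numbered 2 were the highest of the 6 libraries, and the groups overlapped. Its log2 ratio was -0.35, 0.30 and 0.12 in pairs 1 to 3, and its log2 fold change 0.08 (SE 0.29, adjusted p = 0.928), or 0.05 with the block (SE 0.10, adjusted p = 0.753).

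The 2 rRNAs form the cores of the mitochondrial ribosomal subunits. MT-RNR1 (chrM:648-1601), the rRNA of the small subunit, had counts of 7955, 11751 and 8917 in the H295R-labelled libraries and of 7752, 12213 and 8032 in the H295R-PM-Ptc+-labelled ones. The groups lay on top of each other, with a log2 fold change of -0.02 (SE 0.18, adjusted p = 0.976), or -0.03 (SE 0.05, adjusted p = 0.664) with the block. MT-RNR2 (chrM:1671-3229), the rRNA of the large subunit, had 34746, 54934 and 41128 counts against 28641, 46954 and 30303. It was lower in every pair, by 0.20 to 0.38 on the log2 scale, and its fold change was -0.29 (SE 0.20, adjusted p = 0.529), or -0.31 (SE 0.05, adjusted p = 2.17e-04) with the block.

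Ratios between genes of the same library do not depend on its total or its mitochondrial share. They were looked at after the values above were seen and are given as a description, since 3 against 3 libraries cannot give a two-sided exact permutation p below 0.1. The ratio of MT-RNR2 to MT-RNR1 was 4.37, 4.67 and 4.61 in the H295R-labelled libraries and 3.69, 3.84 and 3.77 in the H295R-PM-Ptc+-labelled ones. The groups did not overlap, and the log2 difference was -0.24, -0.28 and -0.29 in the 3 pairs. MT-CO3 over MT-CO1 was 0.951, 0.912 and 0.908 against 0.802, 0.761 and 0.787, again without overlap. That ratio was picked within complex IV, where MT-CO2 over MT-CO1, at 0.880, 1.14 and 1.03 against 0.752, 0.908 and 0.983, overlapped, as did MT-ND6 over MT-ND5. MT-CYB over MT-ND5, its neighbour on the plus strand with MT-ND6 of the minus strand between them, was 2.24, 2.20 and 2.12 against 1.95, 1.89 and 1.82, with log2 differences of -0.21, -0.21 and -0.22 in the pairs. MT-ND5 over MT-ND4 was higher under the label H295R-PM-Ptc+, at 0.279, 0.310 and 0.337 against 0.257, 0.270 and 0.279, where the nearest libraries of the groups were almost level. MT-ATP6 over MT-ATP8, which share bases, was 4.38, 4.21 and 4.48 against 4.05, 3.95 and 3.86.

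The 5 ratios drawn are those whose groups did not overlap, and that choice alone gives all 3 pairs the same direction in each. The groups overlapped in the level of each of the 15 mRNAs and rRNAs. Of the 13 ratios between each of the 14 plus-strand genes and the next, which pass over MT-ND6, 4 did not overlap between the groups, and 22.8% of ratios between neighbouring nuclear genes of the table did not either. This count does not set the mitochondrial ratios apart from that background, and no background was computed for differences within pairs. As shares of the counts of these 15 genes, MT-ATP8 held 1.80% ± 0.05 and 1.54% ± 0.16 in the H295R-labelled and H295R-PM-Ptc+-labelled libraries, and MT-ND5 3.52% ± 0.18 and 4.10% ± 0.08 (SD, n = 3). These were the 2 of the 15 shares whose groups did not overlap, where the levels of 23.5% of all tested genes did not.

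**Figure D4:**
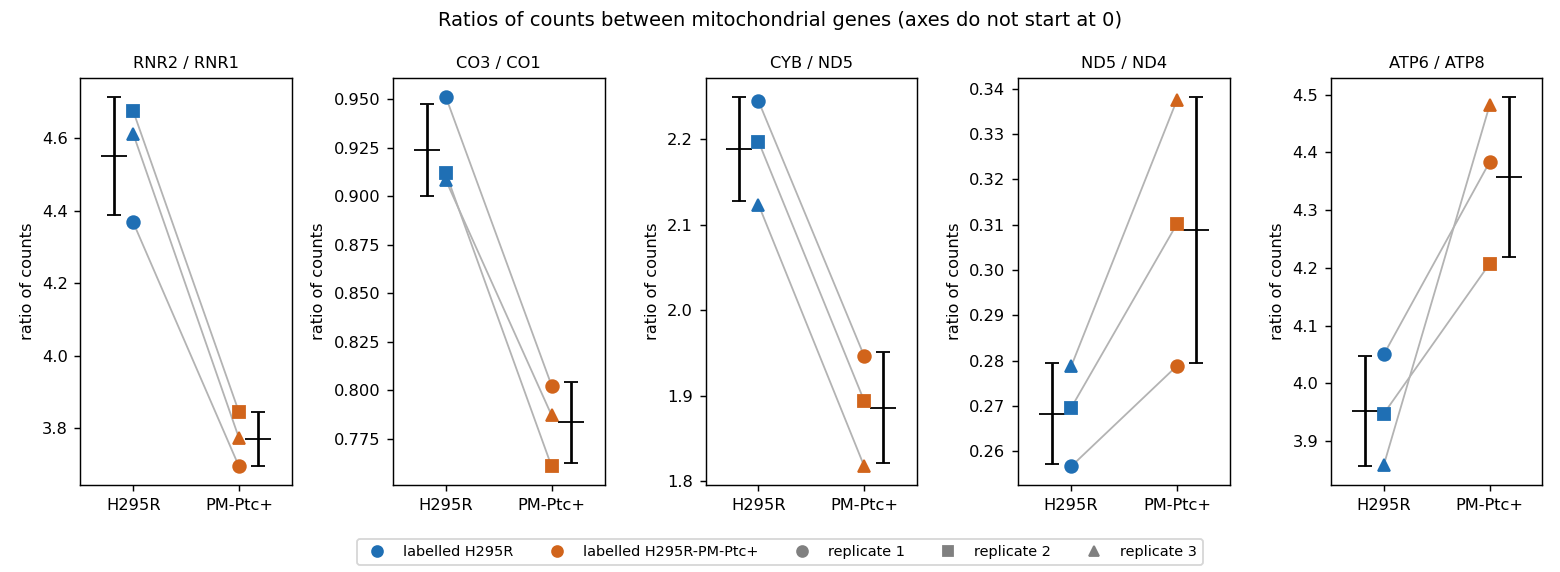
Ratios of the counts of 5 pairs of mitochondrial genes, chosen because the groups do not overlap, with 1 point per library, grey lines joining same-numbered replicates and black bars giving the mean ± SD of each group, on axes that do not start at 0. MT-RNR2 over MT-RNR1, MT-CO3 over MT-CO1 and MT-CYB over MT-ND5 are lower in every H295R-PM-Ptc+-labelled library, and MT-ND5 over MT-ND4 and MT-ATP6 over MT-ATP8 are higher.

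The tRNAs were at the limit of what these libraries could measure. Of the 22 tRNA genes, 4 (MT-TG, MT-TR, MT-TS2 and MT-TL2) had 0 counts in all 6 libraries, which allows a share of up to 2.03e-06% of all counts (3 counts over the 6 libraries, counting error only), and 8 never exceeded 3 counts. The 16 that were not tested include these. The tRNA genes are at most 75 bases long, the length of 1 read, so that counts on these rows need not come from mature tRNAs. The 2 tRNA genes with the most counts are shown with 15 bases on either side, the tRNA in capitals, both on the plus strand. MT-TL1, a leucine tRNA (chrM:3215-3319 as shown), follows MT-RNR2 directly, and MT-TT, the threonine tRNA (chrM:15873-15968 as shown), follows MT-CYB directly.
MT-TL1: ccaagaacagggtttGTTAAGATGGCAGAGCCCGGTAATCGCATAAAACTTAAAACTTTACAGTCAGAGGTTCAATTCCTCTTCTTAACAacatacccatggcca
MT-TT: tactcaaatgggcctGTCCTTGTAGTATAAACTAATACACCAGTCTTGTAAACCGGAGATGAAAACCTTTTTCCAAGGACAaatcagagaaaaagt
MT-TL1 had 102, 90 and 56 counts in the H295R-labelled libraries and 103, 99 and 40 in the H295R-PM-Ptc+-labelled ones. The groups overlapped, with a difference of -0.04 on the log2 scale (SE 0.33). MT-TT had 69, 63 and 69 counts against 55, 56 and 29. In CPM its groups did not overlap. That held for 1 of the 21 tested mitochondrial genes and for 23.5% of all tested genes. Its log2 fold change was -0.52 (SE 0.23, unadjusted p = 0.0473, adjusted p = 0.281), or -0.53 (adjusted p = 0.0681) with the block, and it was lowest in replicate 3 labelled H295R-PM-Ptc+.

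The other 4 tested tRNAs had at most 30 counts in any library. MT-TW, the tryptophan tRNA, had 22, 17 and 12 counts against 7, 15 and 8 and the most negative log2 fold change of the 21 genes (-0.75, SE 0.38, adjusted p = 0.366). MT-TS1, a serine tRNA, had 8, 18 and 5 counts against 7, 16 and 18 and the highest fold change (0.42, SE 0.51, adjusted p = 0.757). MT-TQ had 9 to 30 and MT-TP 9 to 23 counts over the 6 libraries, with overlapping groups in both.

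A further limit touches 7 of the mRNAs and 11 of the tRNAs. The bases chrM:3911-9755 match chr1:629081-634924, a copy of mitochondrial DNA in the nuclear genome, over 5846 aligned positions with 83 mismatches (98.5% identical). The copy holds the whole of MT-ND2, MT-CO1, MT-CO2, MT-ATP8 and MT-ATP6 and part of MT-ND1 and MT-CO3, and the table has a row for each of them on chromosome 1. It also holds the whole of 11 tRNA genes, 6 of them identical throughout, among which are MT-TQ, MT-TW and MT-TS1 of the tested ones. Multiply mapped fragments were counted at their primary position, so that fragments identical in both places can be placed on either row. Of the counts on the 2 rows of MT-ATP6 and its copy MTATP6P1, 30.1% to 31.2% stood on the chromosome 1 row. The share was 20.4% to 23.7% for MT-ND2 with MTND2P28, 22.3% to 23.5% for MT-CO1 with a row named MIR6723 that spans its copy, and 11.3% to 12.01% for MT-ND1 with MTND1P23. It was at most 0.65% for MT-CO3, 0.21% for MT-CO2 and 0.041% for MT-ATP8. The longest stretch that is identical in both places was 266 bases in MT-ND2, 245 in MT-CO1, 158 in MT-ND1, 141 in MT-ATP6, 126 in MT-CO3, 108 in MT-CO2 and 62 in MT-ATP8. Their order is not that of the shares, since MT-ND1 had a longer stretch but a lower share than MT-ATP6. A relation between stretch length and share was not tested.

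The contrast between MT-ATP8, of which almost nothing was placed on the copy, and the adjoining MT-ATP6 is shown beside their sequences, on the plus strand with the bases that differ between the 2 places in capitals. The first pair is the part of MT-ATP8 before the overlap (chrM:8366-8526 and chr1:633535-633695, 4 differing bases). The second holds the longest identical run of MT-ATP6 with its flanks (chrM:8699-8879 and chr1:633868-634048, 3 differing bases).
MT-ATP8, mitochondrial: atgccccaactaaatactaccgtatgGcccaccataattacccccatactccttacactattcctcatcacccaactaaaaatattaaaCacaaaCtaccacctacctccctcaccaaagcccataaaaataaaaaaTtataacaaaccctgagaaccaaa
MT-ATP8, chromosome 1 copy: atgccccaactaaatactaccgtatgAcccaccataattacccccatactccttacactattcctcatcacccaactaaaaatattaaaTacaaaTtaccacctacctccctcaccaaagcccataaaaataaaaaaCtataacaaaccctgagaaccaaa
MT-ATP6, mitochondrial: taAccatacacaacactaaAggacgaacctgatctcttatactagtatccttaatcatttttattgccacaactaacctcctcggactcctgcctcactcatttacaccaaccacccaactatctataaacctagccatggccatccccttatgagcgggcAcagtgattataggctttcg
MT-ATP6, chromosome 1 copy: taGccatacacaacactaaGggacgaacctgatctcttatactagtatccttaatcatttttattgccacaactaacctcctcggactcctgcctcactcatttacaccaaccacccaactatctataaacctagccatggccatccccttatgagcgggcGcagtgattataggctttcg
The second pair holds 141 bases in a row without a difference, and the longest such run in the whole of MT-ATP8 is 62 bases. The part of these runs in the placement of the counts was not tested.

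The share on the chromosome 1 row was lower in each H295R-PM-Ptc+-labelled library than in every H295R-labelled library for MT-ND2, MT-CO1, MT-ATP6 and MT-CO3, and overlapped for MT-ND1, MT-CO2 and MT-ATP8. The nearest libraries of the groups were almost level for MT-ND2, at 22.32% and 22.31%. Levels, a different measure, did not overlap in 23.5% of all tested genes. No background was computed for such shares, so that nothing is read from this count. For MT-ATP6 it was 31.0%, 31.1% and 31.2% against 30.8%, 30.2% and 30.1%. With the copy rows added to their genes, 0 of the mitochondrial genes passed without the block, and 11 were lower with it, MT-ND2 (adjusted p = 0.0258) joining the 10. Of the 189 rows named as nuclear copies of mitochondrial genes, 164 had 0 counts in every library and 7 were tested, of which edgeR called 0, also at an unadjusted p under 0.05. Their median log2 fold change was -0.27, and 3 (MTATP6P1, MTND2P28 and MTND1P23) were lower with the block, beside 10.4% of all tested genes.

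**Figure D5:**
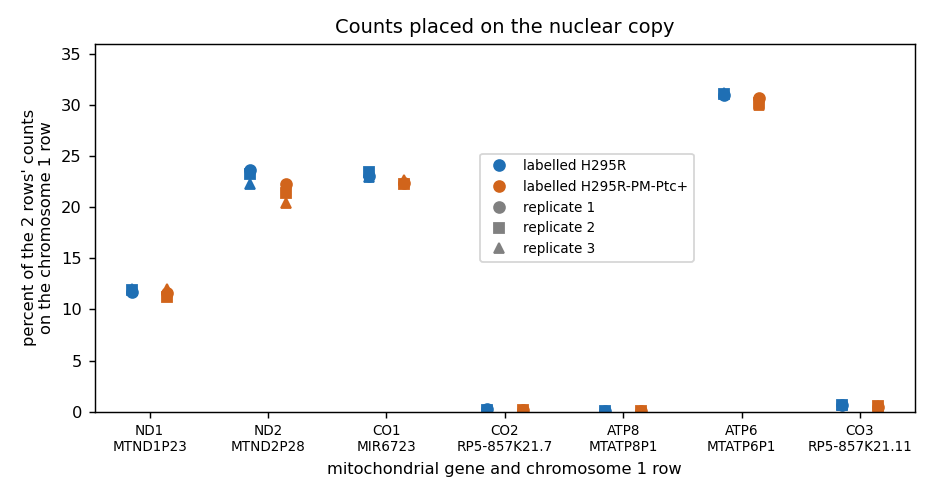
Percent of the counts on a mitochondrial gene's row and the row of its chromosome 1 copy that stand on the chromosome 1 row, with 1 point per library. MT-ATP6, MT-CO1, MT-ND2 and MT-ND1 have 11.3% to 31.2% there in every library, and MT-CO2, MT-ATP8 and MT-CO3 less than 1%.

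The nuclear genes that work with the mitochondrial transcripts were compared by lists. Of 78 nuclear subunits of the respiratory chain and ATP synthase, all tested, edgeR called 0, with a median log2 fold change of -0.08 and 62 of 78 below 0, where the median of all tested genes was 0.00. With the replicate block 19 were lower and 5 higher, beside backgrounds of 10.4% and 12.1%. The median was -0.13 for the 17 of complex V, of which 7 were lower with the block, and -0.10 for the 11 of complex IV, of which 3 were. It was -0.09 for the 9 of complex III, of which 3 were lower with the block, and -0.06 for the 37 of complex I, with 6 lower and 4 higher. For the 4 of complex II, which has no mitochondrially encoded subunit, it was 0.03, with 1 higher. Chosen after their values were seen, the subunits with the smallest p under the block were NDUFA6 (-0.32) of complex I and COX6B1 (-0.26) of complex IV. The median change of the tested mitochondrial genes was thus more negative than that of their nuclear partners. That difference was not tested.

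Of 77 tested mitochondrial ribosomal protein genes, edgeR called 0 (median -0.06), and with the block 11 were lower and 3 higher, beside 10.4% and 12.1% of all tested genes. Of 22 genes of mitochondrial DNA maintenance and transcription, edgeR called 0 (median -0.07), and with the block 3 were lower and 1 higher, beside the same backgrounds. TFAM, which packages mitochondrial DNA and starts its transcription, differed by -0.07 on the log2 scale (SE 0.11, adjusted p = 0.810), and POLRMT, the mitochondrial RNA polymerase, by -0.02 (SE 0.10, adjusted p = 0.935). With the block, DGUOK (-0.28) and POLG (-0.20), a nucleoside kinase and the polymerase for mitochondrial DNA, were among those lower. They were named after their values were seen.

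Of 19 genes for processing and decay of mitochondrial RNA, edgeR called 0 (median -0.06), and with the block 3 were lower and 1 higher, beside 22.5% of all tested genes in either direction. The lower ones were FASTKD2 (-0.24), SLIRP (-0.21), which keeps mitochondrial mRNAs stable, and MTPAP (-0.17), the mitochondrial poly(A) polymerase, and FASTK (0.25), whose short form is needed for MT-ND6 mRNA, was higher. All 4 are named after their values were seen. Of 9 regulators of mitochondrial biogenesis edgeR called 0, and with the block 2 were lower, beside the same 22.5% of all tested genes in either direction. PPARGC1A, a coactivator of that programme, had a log2 fold change of 0.23 (SE 0.31, adjusted p = 0.788). At an unadjusted p under 0.05 edgeR counted 8 of the nuclear respiratory subunits, 8 of the mitochondrial ribosomal protein genes, 3 of the genes of maintenance and transcription, 3 of those of processing and decay and 1 of the regulators of biogenesis, beside the 17.3% of all tested genes. DESeq2 called 1 mitochondrial ribosomal protein gene and otherwise 0 genes of these lists, and limma-voom 0.

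The cytosolic ribosomal protein genes were taken as a measure of library composition. Their summed level was 50151, 40632 and 41041 CPM in the H295R-labelled libraries and 43394, 35634 and 37087 CPM in the H295R-PM-Ptc+-labelled ones. The groups overlapped, since replicate 1 labelled H295R-PM-Ptc+ lay above replicates 2 and 3 labelled H295R. Within every pair the sum was lower under the label H295R-PM-Ptc+, and 69 of 75 genes had a log2 fold change below 0 (median -0.18). However, edgeR called 0 of the 75, with 16 at an unadjusted p under 0.05 (17.3% of all tested genes). With the block 55 were lower and 2 higher, beside 10.4% and 12.1% of all tested genes. MALAT1 and NEAT1, which stay in the nucleus, summed to 195, 155 and 115 CPM under the label H295R and to 201, 184 and 121 CPM under H295R-PM-Ptc+, higher in every pair. NEAT1 (log2 fold change 0.32, adjusted p = 0.511) passed as higher with the block (adjusted p = 0.00110), and MALAT1 (0.02, adjusted p = 0.979) did not. The part of these in the mitochondrial values was not tested.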

How the data were processed

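RNA of 3 libraries per group was sequenced in pairs of 75-base reads from stranded libraries. The authors aligned them with STAR 2.4.0a on hg38 and ran featureCounts by gene name (strand setting 1, primary position of multiply mapped reads, Ensembl annotation). The submitters' processing notes give Subread 1.5.0-p3, and the paper an earlier version. The authors deposited raw counts, without normalization, 1 column per library, whose totals lay between 23264403 and 25813247. These totals limit the precision of low genes, and a floor of 3 counts covers counting error only. A row without a gene name held 0 counts and was left out.

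The 37 rows starting with MT- were read from fits over all genes. Genes that passed filterByExpr entered edgeR 4.0.16 (R 4.3.3) with TMM scaling (quasi-likelihood F-test, two-sided, group as the only term, Benjamini-Hochberg adjustment over all tested genes), and CPM use the same factors. The members, lists and ratios were chosen with earlier results of these data known. Of the named genes, every tested member could be given with its values, and of the nuclear lists TFAM, POLRMT, PPARGC1A and PTCH1 and, where any passed in edgeR, up to 4 genes of a list. CYP21A2 of the adrenocortical markers did, and none of the lists of mitochondrial function. The other nuclear genes named fall outside this rule and were chosen after their values were seen. Same-numbered replicates were taken as pairs, since their deviations from the group means correlated across genes at 0.497, 0.307 and 0.228, against -0.352 to 0.150 for different numbers. The sample descriptions give same-numbered replicates of both groups a common code without saying what it marks, and the paper's methods name no such term, so the block was an alternative. Other alternatives were DESeq2 1.42.0, limma-voom (limma 3.58.1), size factors by relative log expression, plain library totals, library sizes without the mitochondrial genes, leaving out each library, no filter, and a minimum of 10 counts per library. Adding the nuclear copies, which were aligned with blastn 2.17.0, and leaving out each pair under the block were chosen after seeing the data. The scripts were tested on simulated data. Figures used matplotlib 3.10.9, and tables pandas 2.3.3 under Python 3.11.15.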

Additional observations from a re-analysis of the deposited data

How the results depend on the processing

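The number of mitochondrial genes with an adjusted p under 0.05 was 0 in both directions under every alternative without the replicate block, including DESeq2, limma-voom, all scalings and filters and each library left out. With the replicate block it was 10, lower in all 10, and 11 with the nuclear copies added, and leaving out each pair under the block gave 7, 14 and 6 lower without pairs 1, 2 and 3, and 0 to 1 higher. The block raised the number of called genes from 0 to 24 of the nuclear subunits of the respiratory chain and ATP synthase, 14 of the mitochondrial ribosomal proteins, 4 of the maintenance and transcription genes, 4 of the RNA processing genes, 2 of the biogenesis regulators and 3 of the nuclear copies. Of all tested genes 22.5% were called with the block. DESeq2 called 1 mitochondrial ribosomal protein gene, and leaving out a library gave 0 to 1 for the nuclear subunits, the mitochondrial ribosomal proteins and the RNA processing genes. Over all tested genes 624 passed, 1111 without a filter, 3758 with the replicate block, 219 to 810 with a library left out and 4190, 2830 and 2147 with pairs 1, 2 and 3 left out under the block. Fold changes of single genes were not compared for the block fits without a pair. In the other alternatives the single log2 fold changes changed sign only where a library was left out, with ranges of -0.25 to 0.13 for MT-RNR1, -0.27 to 0.25 for MT-TL1, -0.51 to 0.010 for MT-ND1, -0.69 to 0.085 for MT-TQ, -0.47 to 0.0099 for MT-ND2, -0.46 to 0.047 for MT-CO1, -0.35 to 0.15 for MT-ND5, -0.35 to 0.32 for MT-ND6 and -0.67 to 0.29 for MT-TP. Without a change of sign the ranges were -0.54 to -0.12 for MT-RNR2, -0.71 to -0.22 for MT-CO2, -0.85 to -0.22 for MT-ATP8, -0.69 to -0.11 for MT-ATP6, -0.67 to -0.20 for MT-CO3, -0.51 to -0.04 for MT-ND3, -0.54 to -0.05 for MT-ND4L, -0.53 to -0.0051 for MT-ND4, -0.57 to -0.05 for MT-CYB, -0.66 to -0.31 for MT-TT, -1.15 to -0.50 for MT-TW and 0.08 to 1.05 for MT-TS1. Of the alternatives compared for the single genes, 293 kept direction and call, 21 passed the threshold and 18 changed sign, and the cause was not tested. Low counts limit the tRNAs, of which 16 were not tested.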

Other observations

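The differences between replicates of a label had a pattern across the mitochondrial genes that both labels showed. In CPM, replicate 2 over replicate 1 had a log2 ratio of 0.57 for MT-RNR2, 0.48 for MT-ND3, 0.36 for MT-ND2 and 0.53 for MT-ND6 in the libraries labelled H295R, while MT-ND1 (-0.20), MT-ND4 (-0.15), MT-CO3 (-0.11) and MT-CYB (-0.10) were below 0. In those labelled H295R-PM-Ptc+ the ratio was above 0 for all 15 mRNAs and rRNAs, and again high for MT-ND6 (1.19), MT-ND3 (0.95) and MT-ND2 (0.90) and low for MT-ND1 (0.43) and MT-ND4 (0.44). Across the 15 genes, which are not independent replicates, the ratios of both labels correlated with a Pearson's r of 0.86 and a Spearman's rho of 0.90, and they share no library. The GC content of the gene was related to them with a Spearman's rho of -0.71 and a Pearson's r of -0.52 under the label H295R, and -0.69 and -0.57 under H295R-PM-Ptc+, while its rho with the log2 fold change under the replicate block was -0.01. Gene length (rho -0.27 and -0.29 under the 2 labels) and start position (-0.27 and -0.06) were also looked at. Genes of 1 genome share precursors, and no cause of the pattern was tested.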
